A study of Saccharomyces cerevisiae x Saccharomyces kudriavzevii with 6 samples.

Results

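The mitochondrial ribosomal proteins described here are the genes of a list of 59 ORFs from the MRPL, MRP, MRPS and RSM families. The rule that picks them is membership of this list and uses no measured value, although the list was drawn up with results of these data known. Of the 59, 50 had a row among the 5616 ORFs of the array data, and the other 9 were not analysed here. The wine yeasts VIN7 and W27, hybrids between *S. cerevisiae* and *S. kudriavzevii*, were fermenting Tempranillo must at 12°C or 28°C, and RNA was taken as exponential growth began. Every strain has 3 arrays, named A, B and C, each setting the cold against the warm fermentation. Both strains are allotriploid hybrids. W27 lacks parts of the *S. kudriavzevii* chromosomes IV, IX and XV, and VIN7 lacks its chromosome III and parts of IV and VII. The spots carried ORFs of the *S. cerevisiae* strain S288c, so each value reads the alleles of both parents together. Every value below is a log2 ratio of 12°C over 28°C, so that 1 is a 2-fold higher and -1 a 2-fold lower signal at 12°C. The cold sample carried Cy5 on 5 arrays, and VIN7 C had the dyes the other way round.

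Mitochondrial ribosomes translate the few mRNAs of the mitochondrial genome, which mainly encode membrane subunits of the respiratory chain and of ATP synthase. In yeast nearly all of their proteins are encoded in the nucleus, made in the cytosol and imported. They assemble into a large subunit, whose proteins carry the name MRPL, and a small subunit, whose proteins carry the names MRPS or RSM, while the name MRP occurs in both subunits. Many of them are homologues of bacterial ribosomal proteins and others belong to mitochondrial ribosomes alone. A fermenting yeast cell obtains its energy mainly from glycolysis, and the nuclear genes of respiration are repressed by glucose. Only 6 of the 50 genes have a name in the tables used here. These are *MRPL7* (YDR237W), *MRPL8* (YJL063C), *MRPL44* (YMR225C) and *MRPL50* (YNR022C) of the large subunit, and *MRPS35* (YGR165W) and *RSM18* (YER050C) of the small subunit. The other genes are given by their systematic names, without a role for each.

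The arrays differed in quality and in agreement, which bears on all values below. The SD over all genes ranged from 0.39 on VIN7 C to 1.71 on VIN7 B. Over all genes the arrays W27 B and W27 C were closely related (r = 0.795), whereas W27 A ran against both (r = -0.137 and -0.186). The methods describe 2 fermentations per strain with several samples from each and the labels speak of biological replicates, so it is not known how many independent fermentations lie behind the 3 arrays, and the p-values measure only the spread between these arrays.

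The genes of the mitochondrial ribosome had more values below 0 than above it on 5 of the 6 arrays. Their median lay below that of all genes on each array. It was -0.18 on VIN7 A, 0.021 on VIN7 B and -0.19 on VIN7 C, against -0.012, 0.057 and -0.01 for all genes. On W27 A, B and C it was -0.44, -0.43 and -0.33, against -0.11, -0.054 and 0.083. The members' median minus that of all genes was thus between -0.18 and -0.036 in VIN7 and between -0.42 and -0.33 in W27, on the log2 scale. On VIN7 C, 34 of 50 members (68%) were below 0, against 51.2% of all genes, and on W27 C it was 22 of 30 (73.3%), against 46.8%. On W27 B the members were more evenly divided, with 24 of 43 below 0 (55.8%, against 52.4%). Of these 43, 14 were lower by at least 2-fold and 3 higher by as much, against 16.2% and 12.8% of all genes. The other arrays were less one-sided. On W27 A, 9 of 45 were lower and 9 higher by as much (26.7% and 23.3% of all genes). On W27 C it was 7 and 6 of 30 (13.2% and 16.5%). In VIN7 it was 9 and 4 of 39 on array A (9.09% and 8.47%) and 7 and 7 of 31 on array B (24% and 24.9%). On VIN7 C it was 1 and 2 of 50 (0.629% and 0.773%). These are descriptions of the list, and no test was made of it.

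**Figure D1:**
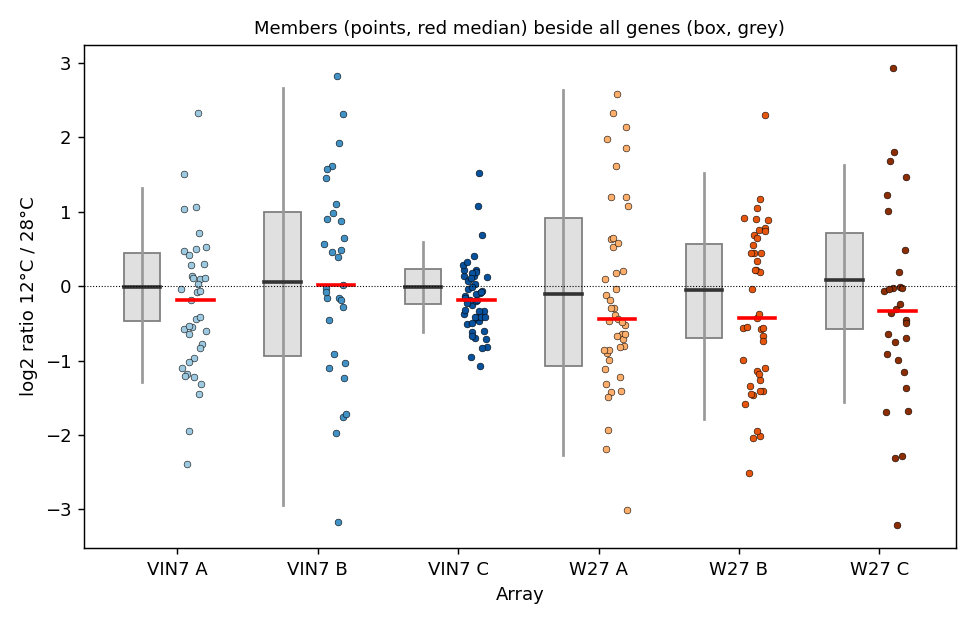
log2 ratio of 12°C over 28°C (y axis) on each array (x axis), for the mitochondrial ribosomal protein genes (coloured points, red line at their median) and for all genes (grey box from the lower to the upper quartile with the median, line from the 5th to the 95th percentile). The red median lies below the grey one on every array, with a difference of -0.036 on VIN7 B and of -0.42 on W27 C.

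The members did not move as 1 block. On VIN7 A they ran from -2.39 (*MRPS35*) to 2.33 (YGR076C), and on W27 C from -3.21 to 2.94, for the same genes. Their SD was larger than that of all genes on VIN7 A (0.93 against 0.79), VIN7 C (0.48 against 0.39), W27 B (1.09 against 1.04) and W27 C (1.32 against 1.00), and smaller on VIN7 B (1.34 against 1.71) and W27 A (1.23 against 1.49). Coverage was uneven as well. In VIN7, 39 members had a value on array A, 31 on array B and 50 on array C, and in W27 it was 45, 43 and 30. Values on all 6 arrays were available for 22 members, and 1 member, YCR003W, was measured on VIN7 C alone (1.52).

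**Figure D2:**
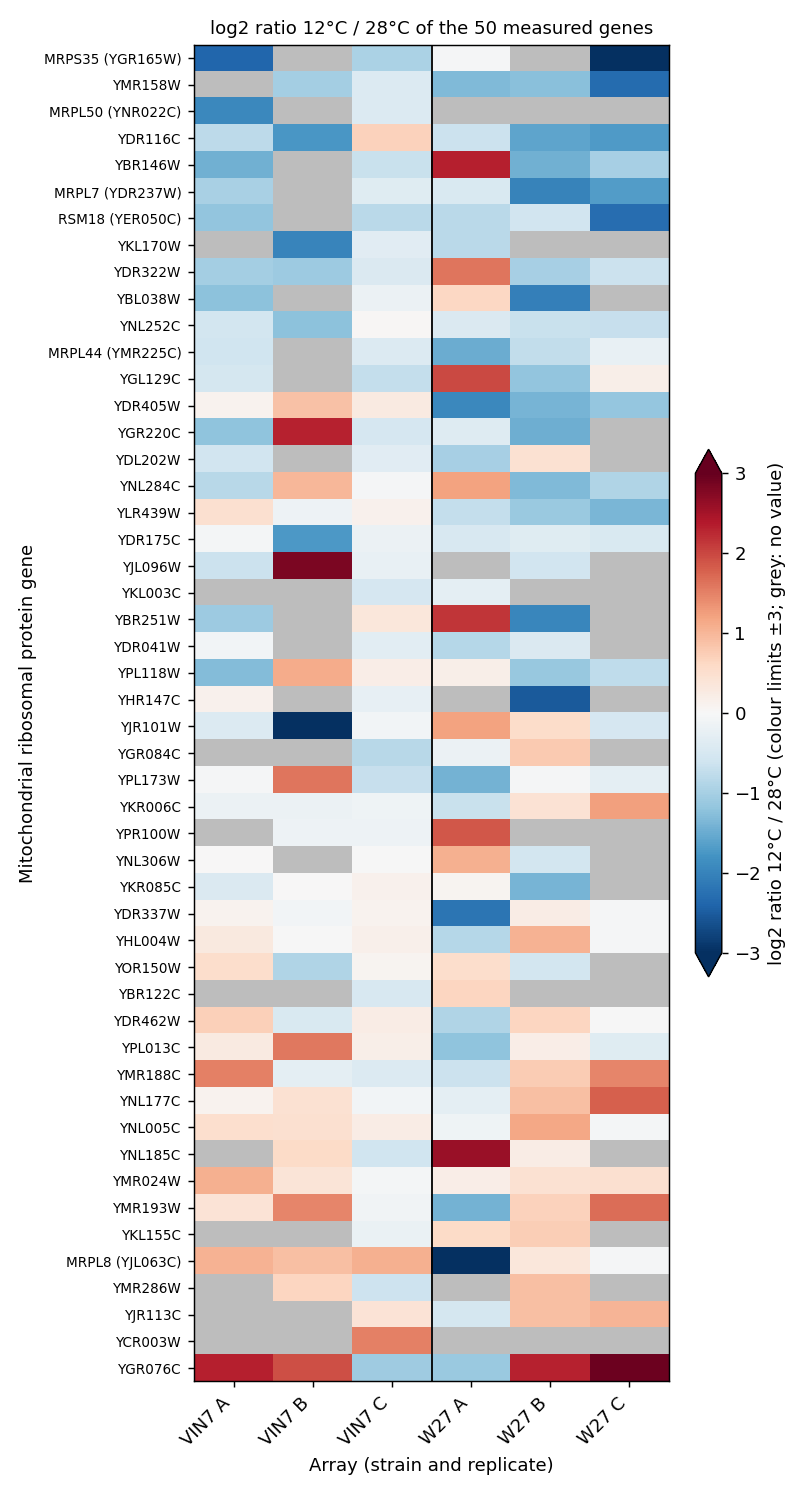
log2 ratio of 12°C over 28°C for the 50 measured genes (rows, ordered by their median over the arrays) on the 6 arrays (columns, VIN7 left and W27 right of the black line). Blue is lower and red is higher at 12°C, and grey marks a missing value. The columns of VIN7 A, W27 B and W27 C resemble each other, and *MRPS35* (top) and YGR076C (bottom) stand at the ends.

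Across members, VIN7 A, W27 B and W27 C were closely related, as they were across all genes. Over the members measured on both arrays, r was 0.801 between W27 B and W27 C (29 genes; 0.795 over all genes), 0.708 between VIN7 A and W27 B (37 genes; 0.657) and 0.762 between VIN7 A and W27 C (28 genes; 0.611). VIN7 B followed them in part, with r = 0.414 to W27 C (23 genes; 0.346) and 0.122 to W27 B (29 genes; 0.305). For W27 A, r was -0.443 with VIN7 A (36 genes, against -0.239 over all genes). It was -0.294 with the second W27 array (40 genes, against -0.137) and -0.116 with the third (30 genes, against -0.186). The dye-swapped VIN7 C gave 0.228 with VIN7 A (39 genes, against 0.369) and -0.182 with VIN7 B (31 genes, against 0.055). These correlations are across genes, which share their array and are not independent replicates. VIN7 A was thus closer to W27 B and W27 C than to the other VIN7 arrays, with r = 0.109 to VIN7 B (26 genes; 0.363 over all genes).

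In VIN7 no member passed a false discovery rate of 5% by limma, as did none of the 5100 genes tested (0%). Of the 44 members with values on at least 2 arrays, 3 had an unadjusted p under 0.05, namely *MRPL8*, *MRPS35* and YDR322W (3 of 44, against 5.47% of all genes). The median over the 44 members was -0.079, against -0.025 for all genes, and 19 of the 44 had a mean above 0 (against 48.5% of all genes). The means ran from -1.67 for *MRPS35* to 1.06 for YGR076C.

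*MRPL8*, the homologue of a bacterial large subunit protein, was close to a 2-fold higher signal on each VIN7 array. It stood at 1.04 on array A, 0.90 on array B and 1.07 on the dye-swapped array C. The 3 values averaged 1.00 ± 0.089 (SD, n = 3), and limma gave an adjusted p of 0.612. The gene is in the study's list of genes up-regulated in VIN7, which was drawn from these arrays, so its direction is not independent evidence. With the sign of VIN7 C turned its mean was 0.29.

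*RSM18*, a small subunit protein, was lower at 12°C on each array that measured it. In VIN7 it was at -1.18 on array A and -0.82 on array C, with no value on array B, which averaged -0.998 ± 0.25 (SD, n = 2; limma adjusted p = 0.612). It is in the study's list of genes down-regulated in VIN7, drawn from the same arrays. With the sign of VIN7 C turned its mean was -0.18. The W27 arrays, which did not enter that list, gave -0.81, -0.57 and -2.28. Those arrays gave no common direction for *MRPL8*, with -3.01, 0.34 and -0.026.

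Among the 26 members with values on all 3 VIN7 arrays, 4 were above 0 on all of them (15.4%, against 24.4% of all genes) and 4 below 0 on all (15.4%, against 16.2%). Besides *MRPL8*, the higher ones were YPL013C, at 0.28, 1.58 and 0.18, YDR405W, at 0.11, 0.87 and 0.28, and YNL005C, at 0.50, 0.49 and 0.21 on arrays A, B and C. The lower ones were YDR322W, at -1.02, -1.10 and -0.44, YJR101W, at -0.42, -3.17 and -0.073, YDR175C, at -0.067, -1.72 and -0.19, and YKR006C, at -0.18, -0.19 and -0.14. YDR322W was thus at or below a 2-fold lower signal on arrays A and B, and averaged -0.85 ± 0.36 (SD, n = 3; limma adjusted p = 0.612). The means of YJR101W and YDR175C rest on VIN7 B, and YKR006C stayed close to 0 on all 3 arrays.

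A median of at least 2-fold was reached by 2 members higher (4.55%, against 5.71% of the genes tested) and 5 members lower (11.4%, against 4.10%) in VIN7. The higher ones were *MRPL8* and YGR076C. The lower ones were *MRPS35* (median -1.67), *MRPL50* (-1.18), YKL170W (-1.15), YBR146W (-1.06) and YDR322W (-1.02). The first 4 of these had values on 2 arrays only. *MRPS35* was at -2.39 on VIN7 A and -0.95 on VIN7 C, and *MRPL50*, the homologue of a bacterial large subunit protein, at -1.94 and -0.42. With the sign of VIN7 C turned, 1 of 44 members was higher and 1 lower by this measure, and the shares over all genes were not computed for that setting.

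In W27 no member passed 5% by limma with all 3 arrays, as did none of the 4894 genes tested (0%). Of the 41 members tested, 5 had an unadjusted p under 0.05, all with means below 0 (*MRPL7*, YDR116C, YDR405W, YLR439W and YMR158W), against 7.27% of all genes. The median over the members was -0.28, against -0.027 for all genes, and 16 of the 41 means were above 0 (against 48.5% of all genes). A median of at least 2-fold was found for 2 members higher (4.88%, against 10.3% of the genes tested) and 6 lower (14.6%, against 10.8%). The higher ones were YGR076C and YNL185C, and the lower ones *MRPL7*, *MRPS35*, YDR116C, YDR405W, YMR158W and YLR439W.

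The same direction on all 3 W27 arrays was mostly a lower signal at 12°C. Of the 29 members with 3 values, 10 were below 0 on all of them (34.5%, against 18.8% of all genes) and 1 was above (3.45%, against 13.0%). YMR158W was at -1.32, -1.26 and -2.31 on arrays A, B and C, a mean of -1.63 ± 0.59 (SD, n = 3). YDR405W was at -1.93, -1.40 and -1.15, with a mean of -1.50 ± 0.40. All values of these genes lay beyond a 2-fold lower signal. *MRPL7*, whose bacterial homologue belongs to the central protuberance of the large subunit, was at -0.47, -2.01 and -1.68, a mean of -1.39 ± 0.81. YDR116C was at -0.65, -1.58 and -1.69 (mean -1.31 ± 0.57), and *RSM18* had a mean of -1.22 ± 0.93 (SD, n = 3). In these 3 genes W27 A or W27 B gave the value nearest to 0. The adjusted p of each of the 5 was between 0.661 and 0.669 by limma. YMR024W was the member above 0 on all 3 arrays, at 0.20, 0.45 and 0.48, a mean of 0.38 ± 0.15.

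Array A decided the calls in W27. With array A left out, 6 members were called higher by limma at 12°C and 10 lower among 29 tested. This was 20.7% and 34.5% of them, against 19.5% and 19.6% of the 3938 genes tested. Of the higher members, YGR076C stood out, with 2.30 and 2.94 on the remaining arrays and a mean of 2.62 (limma adjusted p = 3.88e-04), and with 2.33 and 1.93 on VIN7 A and B. It was at -1.07 on the dye-swapped VIN7 C and -1.11 on W27 A, so the arrays gave opposite signs for this gene. The next were YNL177C at 1.35, YMR193W at 1.18 and YMR188C at 1.11, followed by YJR113C at 0.96 and YKR006C at 0.84. The lower members were led by *MRPL7* at -1.84 (limma adjusted p = 7.99e-04), YMR158W at -1.79, YDR116C at -1.64 and *RSM18* at -1.42 (limma adjusted p = 0.0134). The others were YDR405W at -1.28, YLR439W at -1.23, YBR146W at -1.22, YNL284C at -1.12, YPL118W at -0.95 and YDR322W at -0.82. Over the alternatives the limma adjusted p in W27 ranged from 7.97e-06 to 1 for YGR076C, from 6.56e-05 to 1 for *MRPL7* and from 0.00533 to 1 for *RSM18*. These calls rest on 2 arrays labelled in the same orientation, on which dye and temperature cannot be told apart.

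**Figure D3:**
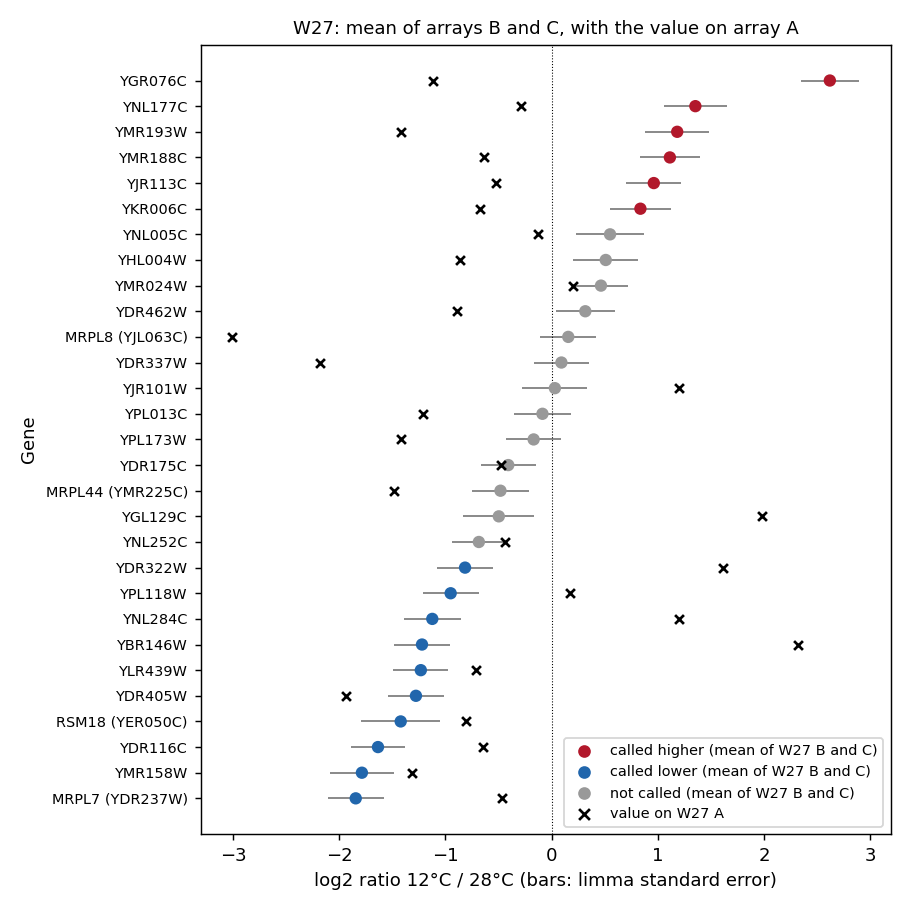
Mean log2 ratio of 12°C over 28°C of W27 arrays B and C (x axis; circles with the limma standard error) for the 29 genes tested without array A (y axis), and their value on W27 A (crosses). Red circles were called higher (6 genes), blue ones lower (10 genes) and grey ones not called. The crosses of all 6 red genes lie below 0, and those of 6 of the 10 blue genes do so too.

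The array that was left out gives a separate reading of these genes. On W27 A, 6 of the 10 members called lower were also below 0 (60.0%). Among all 736 genes called lower and measured there it was 39.0%. Among all 45 members measured on W27 A, called or not, 29 were below 0 (64.4%). Of the 6 members called higher, 0 were above 0 (against 29.8% of 645 genes called higher). The members that were lower on W27 A as well were *MRPL7*, YMR158W, YDR116C, *RSM18*, YDR405W and YLR439W. YDR322W, YNL284C, YBR146W and YPL118W were above 0 there, with 2.32 for YBR146W. On VIN7 A, 7 of 9 members called lower in W27 were below 0 (77.8%, against 88.9% of all genes called lower) and 4 of 5 called higher were above 0 (80%, against 90%). On VIN7 B it was 4 of 7 called lower (57.1%, against 71.7%) and 3 of 5 called higher (60%, against 75.1%). On the dye-swapped VIN7 C it was 6 of 10 called lower (60%, against 58.2%) but 1 of 6 called higher (16.7%, against 52.8%). On that array 34 of all 50 members were below 0 (68%). With the arrays weighted by their estimated precision, 5 members were called higher (12.2% of 41, against 16.8% of all genes) and 14 lower (34.1%, against 18.8%) in W27. Of the members called without W27 A, 5 of the 6 higher and 9 of the 10 lower were called with array weights as well. The other 5 called lower with array weights could not be tested without W27 A, as each had a value on only 1 further array of the strain. On the arrays A and B of W27, YBL038W was at 0.63 and -2.04, and YBR251W at 2.14 and -1.95. Both lie on chromosome II, where all genes had a median of 0.216 and -0.785 on these arrays. YGR220C was at -0.39 and -1.47, and YKR085C at 0.093 and -1.40. For *MRPS35*, arrays A and C gave -0.041 and -3.21. In each of them W27 A gave the higher value, and for *MRPS35* and YGR220C both values lay below 0.

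Considering both strains, 5 of the 31 members measured on at least 5 arrays were below 0 on each of them (16.1%, against 5.37% of all genes), and 0 were above 0 on each (against 3.99%). These were *RSM18*, *MRPL7*, *MRPL44*, YMR158W and YDR175C. *MRPL7* was at -0.96 on VIN7 A and -0.37 on VIN7 C, beside its lower values in W27. *MRPL44*, a large subunit protein without a bacterial homologue, was at -0.61 and -0.41 on VIN7 A and C, and at -1.49, -0.73 and -0.23 on the W27 arrays. YMR158W was at -1.03 on VIN7 B and -0.41 on the swapped array. YDR175C was the only one from the 22 members with 6 values, and in W27 its values lay close together, at -0.48, -0.37 and -0.45. The others came from the 9 members with 5 values, for which fewer arrays had to share a direction. Turning the sign of VIN7 C or of W27 A by construction ends this agreement for each of the 5 genes.

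**Figure D4:**
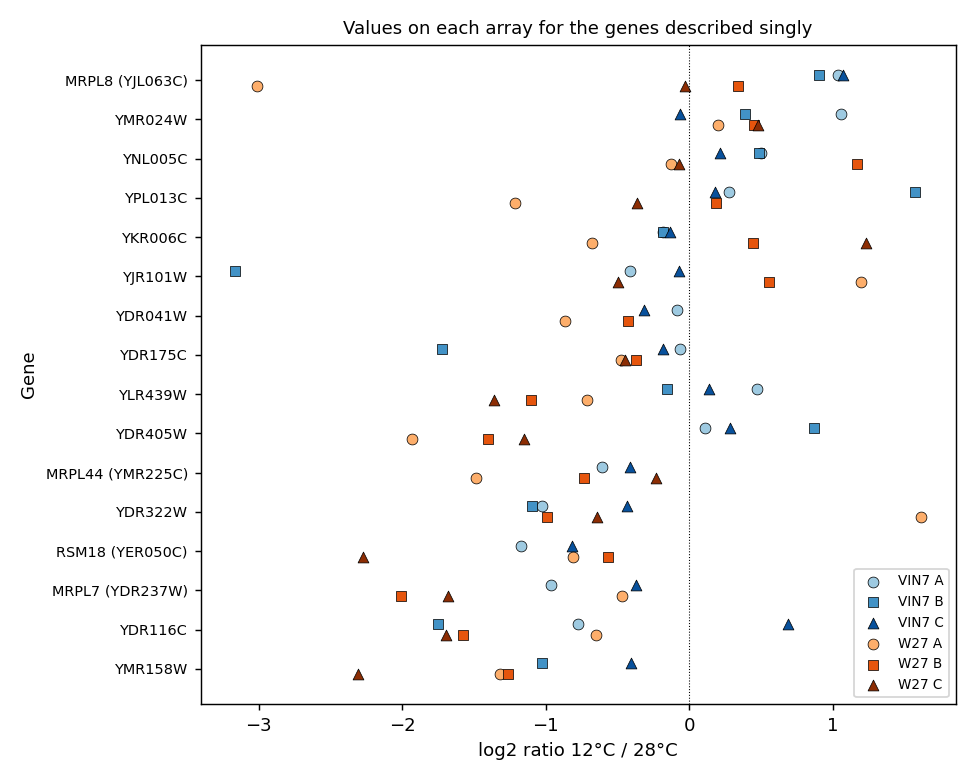
log2 ratio of 12°C over 28°C (x axis) on each array for the genes named by rule (y axis, ordered by their median over the arrays). The rules are given with the processing below. YGR076C, *MRPS35* and *MRPL50*, also described above, are not drawn. Blue symbols are VIN7 and orange to brown ones W27, and each symbol is 1 array (circle A, square B, triangle C). All symbols of YMR158W, *MRPL7*, *RSM18*, *MRPL44* and YDR175C lie below 0, and for YDR405W the VIN7 symbols lie above 0 and the W27 symbols below.

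The response of W27 was compared with that of VIN7 for 38 members with at least 2 values in each strain. None differed at 5% by limma, as did none of the 4670 genes tested (0%). An unadjusted p under 0.05 by limma was found for 2 of the 38 members, against 3.15% of all genes. The median difference W27 minus VIN7 was -0.087, against -0.020 for all genes. The arrays of the strains did not overlap for 5 members, all of them lower in W27 (13.2%, against 9.81% of all genes), and 0 members lay higher in W27 without overlap (against 8.99%). Among these 5, YDR405W differed most, with -1.93, -1.40 and -1.15 in W27 against 0.11, 0.87 and 0.28 in VIN7. Its difference was -1.92 (standard error 0.52, adjusted p = 0.893 by limma, and 0.0705 to 0.992 over the alternatives). *MRPL8* differed by -1.90 (standard error 0.89), with -3.01, 0.34 and -0.026 on the W27 arrays A, B and C. Its difference was -0.85 without W27 A and 0.10 if W27 A was given the opposite sign. YLR439W was at -0.71, -1.10 and -1.36 in W27 against 0.47, -0.16 and 0.14 in VIN7, a difference of -1.21 (standard error 0.50). For YMR158W and YDR041W the differences were -0.91 and -0.44. A missed threshold does not show that the strains respond alike, as the spread between the arrays was large.

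The systematic names give the chromosome of each gene, and 9 measured members lie on chromosome IV, of which both strains lack a part of the *S. kudriavzevii* copy. In W27, 1 of 9 members on chromosome IV was above 0 on array A, 3 of 9 on array B and 0 of 7 on array C, against 44.6%, 36.6% and 43.0% of all genes of the chromosome. In VIN7 it was 3 of 9 on array A, 1 of 6 on array B and 4 of 9 on array C, against 35.1%, 43.1% and 52.0%. The members *MRPL7*, YDR116C, YDR405W and YDR175C, described above, are among them. On chromosome VII, of which VIN7 lacks a part, 0 of 5 members were above 0 on VIN7 C (39.1% of all genes of the chromosome), 1 of 4 on VIN7 A (51.3%) and 2 of 2 on VIN7 B (60.2%). YCR003W was the member on chromosome III, and 86.6% of the genes of this chromosome were above 0 on VIN7 C, where it had its value of 1.52. YOR150W was the member on chromosome XV, of which W27 lacks a part, with 0.52 and -0.55 on arrays A and B of W27 and 0.52, -0.91 and 0.072 on the VIN7 arrays. No measured member lies on chromosome IX. Which of these genes lie in the lost parts is not given in the sources used here. Chromosome II is not among the losses named for either strain. There 25.6% of all genes were above 0 on VIN7 A and 69.1% on VIN7 C. In W27 it was 54.2% on array A, 18.6% on array B and 34.7% on array C. Its members above 0 on these arrays were 0 of 3, 1 of 4, 4 of 4, 0 of 3 and 0 of 1, in that order. The median of all genes of chromosome II was -0.384, 0.184, 0.216, -0.785 and -0.335 on the same arrays. YBL038W, YBR146W and YBR251W, called lower in W27 with array weights, are among its members. The part of this chromosome-wide shift in their values was not tested. Both samples on an array come from the same strain, and the part of copy number in the values was not tested.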

How the data were processed

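Per the methods, the authors scanned dual-colour arrays and subtracted background in GenePix. In Acuity they normalized every array, filtered spots by flag (the methods word this as removing those without a flag, so which spots were dropped is not clear) and adjusted for print tips, and they deposited a log2 ratio of 12°C over 28°C for each ORF on each array. How the ratios were centred is not clear, as the stated target is 1 while the array medians lie near 0. The values were used as deposited. The number of arrays limits their precision.

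Means of each strain were tested against 0, and W27 minus VIN7 over 6 arrays, by limma 3.58.1 under R 4.3.3. A gene entered with values on 2 or more arrays of every strain in the comparison. P-values were adjusted over all genes (Benjamini-Hochberg, threshold 0.05), and all adjusted p-values in the text come from limma. Exact tests cannot pass this threshold here, since their smallest two-sided p is 0.25 for 3 arrays and 0.1 for 3 against 3. The study's 2-fold cut-off was applied to the median over arrays. Scripts were tested on simulated data. Recovery of planted changes was required there only under noise smaller than the spread of these arrays. The power to find changes at the spread of these arrays is thus not given. Alternatives covered centring, scaling, array weights, missing values, a dye term (for VIN7 only), left-out arrays, turned signs and a replicate block. W27 has no dye-swapped array, so dye and temperature cannot be told apart in any of its fits. The fits of W27 minus VIN7 held no dye term.

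The members and lists were chosen with earlier results of these data known. Genes named by rule are the members in the study's VIN7 lists, the highest and lowest means with 1 direction on 3 arrays of a strain, members with 1 direction on at least 5 arrays, and the largest differences without overlap. Other genes were named after their values were seen. Gene names came from the study's gene table. A planned list of other mitochondrial translation genes and a planned promoter search were not run, as gene names and sequences for them were not used here.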

Additional observations from a re-analysis of the deposited data

Results flagged for a closer look

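YDR405W was above 0 on all 3 VIN7 arrays and below 0 on all 3 W27 arrays, a difference W27 minus VIN7 of -1.92. The share of all genes with opposite signs in the strains was not computed. W27 lay below VIN7 without overlap for 9.81% of all genes. By limma the difference of YDR405W did not pass 5% over all genes (adjusted p = 0.893, and 0.0705 to 0.992 over the alternatives). It was -1.70 without W27 A, and -0.63 when that array was given the opposite sign.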

How the results depend on the processing

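No member was called in VIN7 or between the strains under any alternative run, while in W27 the count was 0 with all arrays, 19 with array weights, and 0 to 16 with 1 array left out (16 without W27 A). The cause was not tested. The median over members in VIN7 (-0.079) was -0.26 with scaled arrays, -0.27 with array weights and 0.15 with complete values only, and -0.16 to 0.15 with 1 array left out (0.15 without VIN7 C). In W27 (-0.28) it was -0.19 with centred arrays, -0.45 with array weights, -0.35 with complete values and -0.21 with W27 A turned, and -0.45 to -0.17 with 1 array left out. The difference (-0.087) was -0.24 with array weights, and -0.35 to 0.014 with 1 array left out (0.014 without W27 A).

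Members at least 2-fold higher in VIN7 numbered 0 of 44 at a 4-fold threshold, 1 of 44 with VIN7 C turned and 1 to 2 with 1 array left out. Those lower numbered 0 of 44 at 4-fold, 11 of 44 with scaled arrays and 1 of 44 with VIN7 C turned. It was 1 of 26 with complete values and 2 to 3 with 1 array left out. In W27 those higher numbered 1 of 41 at 4-fold and 1 of 41 with scaled arrays. It was 1 of 29 with complete values and 1 to 4 with 1 array left out. Those lower in W27 numbered 0 of 41 at 4-fold, 12 of 41 with W27 A turned and 6 to 9 with 1 array left out. The shares over all genes were not computed under these settings, so the counts are not read as a result about the members.

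The mean of *MRPL8* in W27 (-0.90) was 0.088 with array weights and 1.11 with W27 A turned, and -1.52 to 0.16 with 1 array left out (0.16 without W27 A). With W27 A turned, *MRPL44* in W27 was 0.17 and the strain difference of *MRPL8* 0.10. The difference of YDR041W was 0.032 with scaled arrays and 0.42 with W27 A turned. Of 246 single-gene alternatives, 229 kept direction and side of the threshold, 10 passed the threshold in addition and 7 changed sign. Many of these genes were picked for sharing a direction on their arrays, so leaving out an array could not change their sign. None passed the threshold in the main fit, so keeping its side means staying uncalled. The tally is thus not a measure of how robust the values are.

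The letters A, B and C occur in both strains. For same-lettered arrays the deviations had r = -0.112, 0.108 and -0.259 over 2674 genes. Pairs with different letters ran from -0.268 to 0.287. The labels do not say whether same-lettered arrays share more than the letter, and these values cannot tell. With the replicate block the median difference was -0.26 and 0 members were called.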
